A study of Mus musculus with 19 samples.

Results

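Kidney RNA of hypertensive BPH/2J mice was compared with that of normotensive BPN/3J mice, both given vehicle once daily for 28 days. BPH/2J and BPN/3J are inbred strains that were bred in parallel for high and for normal blood pressure. The comparison held 5 BPH/2J and 4 BPN/3J adult mice with 1 polyadenylated RNA library each, 9 of the 19 libraries of the study. The remaining 10 libraries came from mice of both strains given Cmpd17b, a small molecule that acts on formylpeptide receptors, intraperitoneally at 50 mg/kg/day for 28 days, and serve below as a second look at the same strain contrast in other mice. A gene entered the comparison when it passed the expression filter of edgeR (filterByExpr) in the 9 vehicle libraries, which 15716 of 40413 genes did. No allele was introduced in either strain, so blood pressure and genetic background cannot be told apart: every difference below is a difference between strains. All libraries carry batch label 2, and since the labels number the libraries strain by strain, library order and strain cannot be told apart either.

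The kidney filters plasma in glomeruli, where podocytes form the filtration barrier, and the tubule then reclaims salt, glucose, amino acids and water. Renin, made by modified smooth muscle cells next to the glomerulus, starts the cascade that yields angiotensin II, a vasoconstrictor that also promotes salt retention. High blood pressure can injure glomeruli and vessels and can leave scar tissue rich in collagen, and inbred strains also differ at many loci that have no bearing on blood pressure. The BPH/2J strain is known for a strong sympathetic contribution to its hypertension.

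Total counts ran from 25840897 to 40998662 per library. Markers of the labelled tissue were present in all 9 libraries, with the phosphate transporter Slc34a1 at 2202 to 4103 CPM (counts scaled to library size) and uromodulin, Umod, at 742 to 2805 CPM before scaling. Other levels below are CPM on the TMM scale, a scaling between libraries that is robust to a few dominant genes. Mitochondrially encoded transcripts took 18.9% ± 2.42 of counts in BPH/2J mice (SD, n = 5) and 14.4% ± 1.38 in BPN/3J mice (SD, n = 4; two-sided exact permutation p = 0.0317, 0.0952 after Benjamini-Hochberg adjustment over 4 such measures; the smallest p possible is 0.0159). None of the 13 mitochondrial genes was called by edgeR, although all 13 had a positive log2 fold change (median 0.39). Cytoplasmic ribosomal protein genes took 1.52% to 2.83% of counts in BPH/2J and 1.83% to 2.66% in BPN/3J libraries (exact permutation p = 0.619). BPH/2J mice varied more: the median SD of log2 CPM over genes was 0.28 against 0.18 in BPN/3J mice.

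One BPH/2J library stood apart and bears on the genes that were lowest in that strain. To look for it without using vehicle values, 20 genes were taken by their levels in treated mice. Replicate 1 of the BPH/2J Cmpd17b group, which holds a heart muscle profile, was left out of this choice. Every other treated BPH/2J mouse had these genes at under 10% of the lowest treated BPN/3J mouse. Each gene was also at 2 CPM or more in every treated BPN/3J mouse. Those of the 20 genes that could be placed lie on 10 chromosomes. In BPH/2J vehicle replicate 5 their median level was 27.8% of the BPN/3J vehicle mean (range 1.04% to 46.1%), against medians of 0.54% to 2.39% in the other 4 BPH/2J vehicle libraries. Replicate 5 was the highest BPH/2J library for 20 of these 20 genes. The reverse choice, 33 genes low in treated BPN/3J mice, gave medians of 1.74% to 2.93% in the 4 BPN/3J vehicle libraries. The highest gene of that set reached 77.8% to 224% of the BPH/2J vehicle mean in these libraries. Not all of the 33 were thus low in BPN/3J vehicle mice. The origin of these transcripts was not tested. Values without replicate 5 are given beside the largest falls, and calls that were lost without it are named with the counts over all genes.

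**Figure D1:**
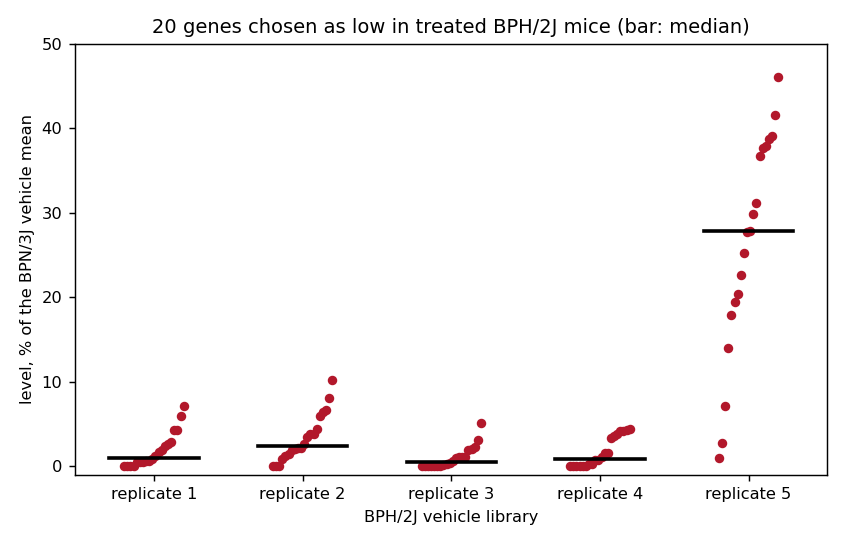
Levels of 20 genes, chosen as low in treated BPH/2J mice, in each of the 5 BPH/2J vehicle libraries, as a percentage of the BPN/3J vehicle mean; each point is a gene and the bar is the median. Replicate 5 sits at a median of 27.8%, and the other 4 libraries at 0.54% to 2.39%.

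Under vehicle, 1476 genes differed between the strains at an edgeR adjusted p under 0.05, which is 9.39% of the genes tested. Of these, 780 were higher in BPH/2J mice (4.96%) and 696 were lower (4.43%). The differences were often large: 466 of the higher and 279 of the lower genes differed 2-fold or more, and 53 and 27 differed 16-fold or more. The median size among called genes was a log2 fold change of 1.21 for higher and 0.85 for lower genes, whereas the median over all genes tested was 0.03. The groups did not overlap for 721 of the higher and 655 of the lower calls. Over all genes tested they did not overlap for 2163 (13.8%), with BPH/2J higher for 6.8% and lower for 6.96%. Without replicate 5, 1328 genes were called (8.51%), 692 higher (4.43%) and 636 lower (4.07%), of which 1198 were among the 1476. Among the called genes described below, Serpina1c, Selenop, Wt1, Magi2, Cldn5, Sox17, Fbn1, Col5a2, Col15a1, Col18a1, Pde5a, Cul3, Cubn, Slc22a4, Cyp2f2, Pcna and Atg3 were not called without replicate 5, with edgeR adjusted p-values of 0.0512 (Serpina1c) to 0.101 (Cldn5). Of all 1476 calls, 690 were made in the same direction in each of the 9 fits that left out 1 library. The fewest calls, 815, came without BPN/3J vehicle replicate 3, and the most, 2110, without BPH/2J vehicle replicate 1.

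**Figure D2:**
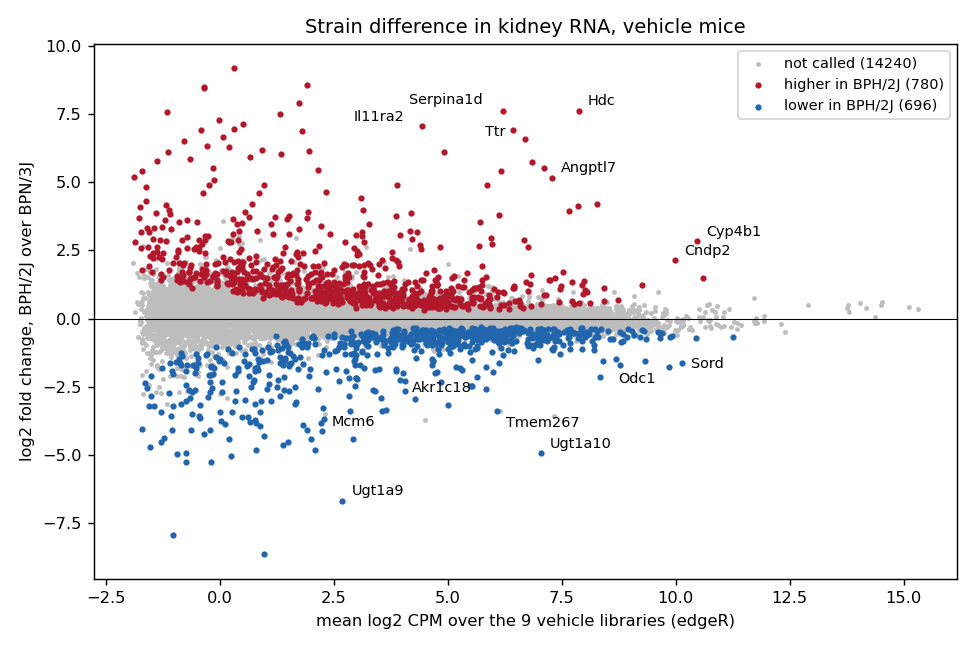
Each point is 1 of 15716 genes; the x axis is the mean log2 CPM over the 9 vehicle libraries and the y axis the log2 fold change of BPH/2J over BPN/3J. The 780 genes called higher are red and the 696 called lower are blue.

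The largest rise with a high level was that of Hdc, histidine decarboxylase, the enzyme that makes histamine. Its level was 411, 427, 603, 288 and 363 CPM in the 5 BPH/2J mice and 2.96, 0.501, 3.88 and 1.06 CPM in the 4 BPN/3J mice. Every BPH/2J mouse was far above every BPN/3J mouse, a 198-fold difference (log2 fold change 7.63, SE 0.58, edgeR adjusted p = 2.7e-05). None of the other 4 histamine genes tested was called, among them the degrading enzymes Hnmt (log2 fold change 0.17) and Aoc1 (1.90). The groups did not overlap, with BPH/2J higher, for 2 of the 5 histamine genes, Hdc among them (6.8% over all genes tested). In mice given Cmpd17b, 2 of the 5 were called higher, Hdc among them.

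Transcripts for plasma proteins usually made by liver were also higher. Ttr, transthyretin, a carrier of thyroid hormone and retinol-binding protein, stood at 113, 143, 223, 222 and 220.0 CPM in BPH/2J mice and at 2.11, 1.59, 2.79 and 1.21 CPM in BPN/3J mice (log2 fold change 6.57, SE 0.34, edgeR adjusted p = 2.67e-06). Serpina1a and Serpina1d encode alpha-1-antitrypsin, a protease inhibitor, and rose by 6.91 and 7.61 on the log2 scale. Their BPH/2J means were 154 ± 93.7 and 133 ± 60.1 CPM (SD, n = 5) against 1.26 ± 0.395 and 0.672 ± 0.317 CPM (SD, n = 4). Of 12 liver marker genes tested, 3 were called, namely Ttr, Serpina1a and Serpina1c (3.09, with overlap between strains and a call in 2 of the 9 fits that left out a library). Alb, albumin, had a log2 fold change of 0.98 and Apob one of 0.13, and neither was called. The summed level of the liver list was 2392 to 3588 CPM in BPH/2J and 2768 to 4075 CPM in BPN/3J libraries before scaling, so the list as a whole overlapped between strains. Serpina1 genes share much of their sequence (64.6% of the 31-base words of Serpina1a occur in another gene), so their reads may be divided among copies with uncertainty.

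Other large rises fell on genes of several kinds. Angptl7, a secreted protein of the angiopoietin-like family, was at 349.8, 306, 275, 183 and 254 CPM in BPH/2J mice and at 9.02, 3.36, 9.62 and 8.55 CPM in BPN/3J mice, with no overlap (log2 fold change 5.16, edgeR adjusted p = 9.46e-06). Plppr1, a phospholipid phosphatase-related membrane protein, averaged 24.5 ± 5.86 CPM (SD, n = 5) against 1.79 ± 0.172 CPM (SD, n = 4). Il11ra2 (log2 fold change 7.05), Eno1b (5.74), Rpl26 (4.14), Eif3j2 (3.88) and Rnaset2b (3.53) each share 53.4% or more of their 31-base words with another gene or pseudogene, so part of each difference may lie in how reads were divided among copies. Single-copy genes by that measure include the zinc finger genes Zfp951 (4.41) and Zfp830 (1.66) and Sorbs3 (1.78), a cell adhesion scaffold. Ahcyl and Tmem254, higher by 5.51 and 1.48 on the log2 scale, could not be matched to a transcript for this check. For all 10 of the genes with the largest rises the call held in each fit with 1 library left out.

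Among called genes, the largest gains in CPM were those of Cyp4b1, Ftl1, Cndp2, Nudt19, Hdc and Rpl26. Genes that were not called could gain more. One example is the mitochondrial gene ND2, which went from a mean of 6238 to 8796 CPM (edgeR adjusted p = 0.0527). Cyp4b1, a cytochrome P450 of the fatty acid hydroxylase family, stood at 2946, 2713, 2399.7, 1699 and 1774 CPM in BPH/2J mice and at 304, 269, 317 and 405 CPM in BPN/3J mice. The lowest BPH/2J mouse was thus above the highest BPN/3J mouse by a wide margin (log2 fold change 2.83, SE 0.21, edgeR adjusted p = 2.61e-05). Cndp2, a cytosolic dipeptidase, averaged 1552 ± 543 CPM (SD, n = 5) against 349 ± 30.8 CPM (SD, n = 4), and Nudt19, a peroxisomal hydrolase of coenzyme A, 819 ± 132 CPM against 347 ± 81 CPM. Ftl1, the light chain of the iron store ferritin, was higher by 1.48 on the log2 scale, but 80.6% of its 31-base words occur in a pseudogene.

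Large falls were found in Ugt1a9 and Ugt1a10, glucuronosyltransferases that attach glucuronic acid to drugs and bilirubin-like compounds. Ugt1a10 was at 16.8, 6, 0.52, 3.01 and 20 CPM in BPH/2J mice and at 336, 296, 320.5 and 180.0 CPM in BPN/3J mice. Its level was low in every BPH/2J mouse, without overlap (log2 fold change -4.94, SE 0.76, edgeR adjusted p = 0.0024). Ugt1a9 fell by 6.68 and was not counted at all in 3 of the 5 BPH/2J mice. Without replicate 5 the log2 fold changes of Ugt1a9 and Ugt1a10 were -7.32 and -5.42, and the order of the largest falls changed, with Spink6 ahead of Ugt1a9 and Zfp33b ahead of Ugt1a10. Ugt1a genes share their last exons, and 65.1% and 63.6% of the words of Ugt1a9 and Ugt1a10 occur in another gene. Ugt1a6a and Ugt1a6b fell by 2.19 and 2.47, while Ugt2b37, an enzyme of another branch of the family, rose by 2.95. These are uncertain in the same way, with 85.1% of the words of Ugt1a6b and 25.9% of those of Ugt2b37 shared.

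Replicate 5 was the highest BPH/2J library for most of the other large falls. Tlr12, a Toll-like receptor, was at 0.334, 0.491, 0.0743, 0.337 and 1.07 CPM in BPH/2J mice and at 7.28, 9.48, 8.62 and 5.54 CPM in BPN/3J mice. Zfp33b was at 0.0577 to 0.121 CPM in 4 BPH/2J mice and at 2.19 CPM in replicate 5, against 6.81 to 7.41 CPM in BPN/3J mice. Its log2 fold change was -3.92 with replicate 5 and -6.21 without it. Spink6, a serine protease inhibitor, moved from -4.55 to -7.73, Sectm1a from -3.81 to -4.96, Tagap from -3.67 to -4.23 and Tmem267 from -3.38 to -4.04. Tlr12 moved from -4.09 to -4.59, Xlr3b from -4.83 to -5.38 and Potefam3b from -4.40 to -4.82. Xlr3b shares 58.6% of its words with Xlr3a, so its count is uncertain, and Potefam3b and Zfp33b could not be matched to a transcript for that check. Tagap shares 54.9% of its words with Tagap1, a neighbouring copy that was higher in BPH/2J mice (log2 fold change 1.41).

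Among called genes, the largest losses in CPM were in Sord, Selenop, Odc1, Ldhd, Ubb and Slc6a18. Sord, sorbitol dehydrogenase, was at 616, 515, 551, 409 and 820.3 CPM in BPH/2J mice and at 1689.9, 1831, 1681 and 1960.3 CPM in BPN/3J mice (log2 fold change -1.62, SE 0.18, edgeR adjusted p = 0.000341). The highest BPH/2J mouse was again replicate 5, at less than the lowest BPN/3J mouse. Odc1, ornithine decarboxylase, the first enzyme of polyamine synthesis, averaged 445 ± 156 CPM (SD, n = 5) against 1516 ± 296 CPM (SD, n = 4). Ubb, a ubiquitin gene, averaged 349.6 ± 149 against 1016 ± 152 CPM. Sord, Odc1 and Ubb share 35.9%, 32.2% and 57.3% of their words with other gene models, so their levels are uncertain to that extent. Selenop, selenoprotein P, and Ldhd, a D-lactate dehydrogenase, fell by 0.69 and 0.70, and Selenop lost its call in 6 of the 9 fits with a library left out.

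**Figure D3:**
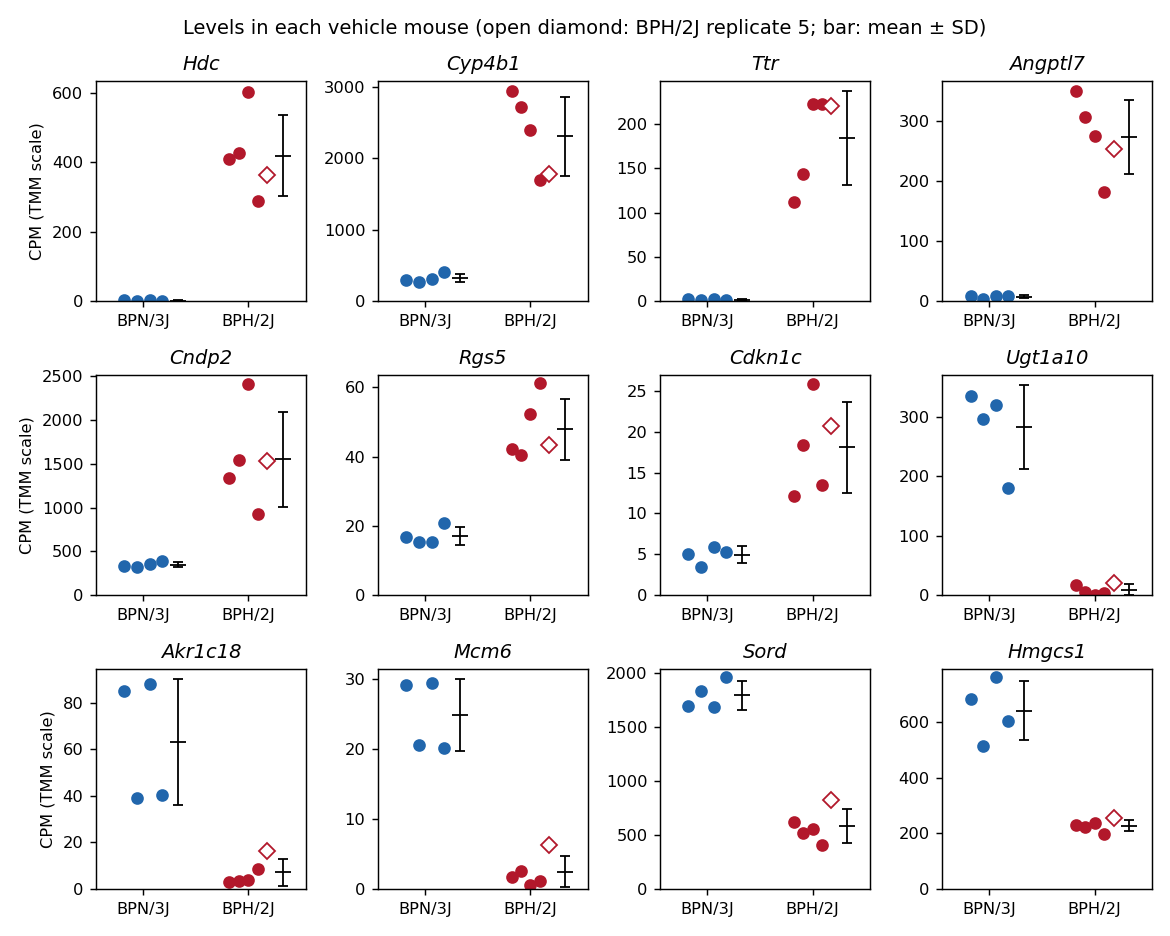
CPM on the TMM scale of 12 genes in each vehicle mouse; points are mice, the open diamond is BPH/2J replicate 5, and bars are mean ± SD. In all 12 panels the 5 BPH/2J and 4 BPN/3J mice do not overlap.

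Promoter sequences of 6 of the genes with large differences are shown, 3 higher and 3 lower in BPH/2J mice, to give the DNA just before each start site. The genes were chosen by hand after their values were seen. Dnajc28, a chaperone-related gene, was at 2.48 to 3.87 CPM in BPH/2J and at 12.1 to 15.9 CPM in BPN/3J mice (log2 fold change -2.21). The sequences are the 250 bases upstream of the annotated start in RefSeq, build GRCm38.p6, printed 5′ to 3′ on the gene's strand, and are the reference sequence, not that of either strain. Capitals mark a GC box (GGGCGG, read on either strand) or a CCAAT box (CCAAT, read on either strand).
Hdc, chr2:126618679-126618928, minus strand: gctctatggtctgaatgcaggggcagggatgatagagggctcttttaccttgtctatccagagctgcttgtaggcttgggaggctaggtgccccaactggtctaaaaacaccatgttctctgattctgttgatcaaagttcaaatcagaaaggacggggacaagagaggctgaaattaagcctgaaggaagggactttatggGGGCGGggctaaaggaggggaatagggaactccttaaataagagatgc
Cyp4b1, chr4:115647722-115647971, minus strand: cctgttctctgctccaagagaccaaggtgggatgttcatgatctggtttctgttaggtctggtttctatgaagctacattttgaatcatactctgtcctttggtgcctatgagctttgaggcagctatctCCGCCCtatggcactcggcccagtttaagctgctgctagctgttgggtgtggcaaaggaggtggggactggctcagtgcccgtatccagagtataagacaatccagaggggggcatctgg
Angptl7, chr4:148500463-148500712, minus strand: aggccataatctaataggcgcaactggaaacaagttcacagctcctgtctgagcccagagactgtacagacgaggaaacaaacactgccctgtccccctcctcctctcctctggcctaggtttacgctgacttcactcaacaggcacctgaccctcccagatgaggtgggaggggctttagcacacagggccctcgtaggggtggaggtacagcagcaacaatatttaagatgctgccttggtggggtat
Akr1c18, chr13:4150647-4150896, minus strand: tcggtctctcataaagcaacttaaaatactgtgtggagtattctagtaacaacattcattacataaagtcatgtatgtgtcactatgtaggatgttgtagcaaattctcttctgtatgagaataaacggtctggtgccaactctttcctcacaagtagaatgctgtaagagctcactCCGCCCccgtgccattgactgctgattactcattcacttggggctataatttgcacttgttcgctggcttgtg
Dnajc28, chr16:91619000-91619249, minus strand: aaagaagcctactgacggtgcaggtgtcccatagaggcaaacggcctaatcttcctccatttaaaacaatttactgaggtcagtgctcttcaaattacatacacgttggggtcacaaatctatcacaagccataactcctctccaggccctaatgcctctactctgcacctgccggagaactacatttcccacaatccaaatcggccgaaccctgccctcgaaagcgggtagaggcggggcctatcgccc
Mcm6, chr1:128359706-128359955, minus strand: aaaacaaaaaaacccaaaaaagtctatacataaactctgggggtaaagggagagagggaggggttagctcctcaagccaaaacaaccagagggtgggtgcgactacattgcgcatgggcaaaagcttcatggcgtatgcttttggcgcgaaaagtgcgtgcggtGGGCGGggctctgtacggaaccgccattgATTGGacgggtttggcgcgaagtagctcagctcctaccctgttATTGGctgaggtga
Hdc has a GC box that begins 48 bases before the start, Cyp4b1 one at 120 bases and Akr1c18 one at 73 bases, the last pair read on the other strand. Mcm6 has a GC box at 86 bases and CCAAT boxes at 57 and 14 bases. Angptl7 and Dnajc28 have neither box in this window. None of these matches overlaps another, and none of the 6 windows holds TATAAA or the E-box CACGTG. In windows of 300 bases that run 50 bases past the start, a GC box was found in 53.5% of the promoters of tested genes, in 47.2% of those of genes called higher and in 47.0% of those of genes called lower. A CCAAT box was found in 34.2%, 35.5% and 36.7%. Promoters were matched by symbol for 11919 of the 15716 genes tested. A match describes letters only and says nothing of binding.

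Gene lists were then read against the background of 9.39% called and a median of 0.03. In bulk kidney, more cells of a type and more RNA per cell cannot be told apart. Podocyte genes differed most often: 9 of 16 were higher and 1 was lower (62.5% called, median log2 fold change 0.70). Cdkn1c, a cell cycle inhibitor of mature podocytes, was at 12.2, 18.3, 25.9, 13.5 and 20.7 CPM in BPH/2J mice and at 5.07, 3.45, 5.88 and 5.33 CPM in BPN/3J mice. Every BPH/2J mouse was above every BPN/3J mouse (log2 fold change 1.87, SE 0.25, edgeR adjusted p = 0.000895). Synpo, an actin-binding protein of podocyte foot processes, and Podxl, their surface sialoprotein, were higher by 0.94 and 0.64. Wt1, a transcription factor that podocytes need (1.02), Tcf21 (1.15), Nes (0.91), Plce1 (0.72) and Magi2 (0.62) were called too, whereas Clic5, a chloride channel-like protein of foot processes, was lower (-0.79). Nphs1, nephrin, had a log2 fold change of 0.68 and was not called. In fits with 1 library left out, 5 (without BPN/3J vehicle replicate 2) to 10 podocyte genes were higher, and 7 without replicate 5.

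Smooth muscle and pericyte genes went both ways, with 5 of 15 higher and 2 lower (46.7%, median 0.43). Rgs5, a regulator of G protein signalling in pericytes, was at 42.1, 40.5, 52.3, 61.3 and 43.4 CPM in BPH/2J mice and at 16.7, 15.4, 15.3 and 20.8 CPM in BPN/3J mice, with no overlap (log2 fold change 1.49, SE 0.15, edgeR adjusted p = 0.000196). The contractile genes Acta2 (1.41), Tagln (1.34), Myh11 (1.15) and Cnn1 (1.92) were higher. BPH/2J vehicle replicate 4 had the highest Acta2 and Tagln, at 48.5 and 45.1 CPM. That library also had the highest summed level of urothelium markers, 233 CPM against 62.8 to 95.8 CPM in the other 8, and of fat markers, 164 CPM against 22.8 to 84.8 CPM. All 13 members of the urothelium list and all 13 of the fat list were counted in at least 1 vehicle library. All 9 urothelium genes tested and all 10 fat genes tested had a positive log2 fold change (medians 1.63 and 0.82, above the smooth muscle median), and none was called. Their part in the smooth muscle result was not tested. The count of 5 higher genes was the same without replicate 4 and fell to 1 without BPN/3J vehicle replicate 1 or 3. Lmod1, an actin nucleator of smooth muscle, was lower (-1.26), as was Ren1.

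Endothelial genes were higher for 4 of 18 (22.2%, median 0.31) and lower for none. These were Pecam1, an adhesion molecule of endothelial junctions (0.75), Cldn5, a tight junction protein (0.86), the transcription factor Sox17 (0.54) and Nos3. Of the 9 fits that left out a library, Pecam1 was called in 4, Sox17 in 2 and Cldn5 in 1. All but 1 of the 18 log2 fold changes were positive. Leaving out replicate 4 of BPH/2J, or replicate 1, 2 or 3 of BPN/3J, lowered the count to 1, leaving out replicate 2, 3 or 5 of BPH/2J or replicate 4 of BPN/3J lowered it to 2, and leaving out replicate 1 of BPH/2J raised it to 5.

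Collagen and matrix genes were higher for 9 of 27 and lower for none (33.3%, median 0.78). Sparc, a collagen-binding glycoprotein, was at 58.5, 145, 92.8, 93.8 and 84.4 CPM in BPH/2J mice and at 46, 49.2, 41.2 and 58.8 CPM in BPN/3J mice. The ranges touched only at the lowest BPH/2J and the highest BPN/3J mouse (log2 fold change 0.96, SE 0.22, edgeR adjusted p = 0.0218). Dcn, decorin (1.34), Tnc, tenascin C (1.80), Fbn1, fibrillin (1.10), Eln, elastin (0.77), Col15a1 (1.03), Col5a2 (0.78) and Col18a1 (0.51) were also higher. The count of 9 includes Vim, vimentin (1.14), a filament protein inside cells that is on the list but is not a matrix protein. Fbn1 was called in 2 of the 9 fits that left out a library and Eln in 4. The main fibrillar collagens were not called: Col1a1 was at 4.22, 24.6, 6.17, 6.63 and 3.87 CPM in BPH/2J and at 3.3, 5.8, 2.14 and 4.49 CPM in BPN/3J mice (edgeR adjusted p = 0.206). BPH/2J vehicle replicate 2 alone was high for Col1a1 and for Col3a1, where it reached 45.8 CPM and the other 4 BPH/2J mice 6.74 to 14.2 CPM. The number of matrix genes called higher depended on single libraries. It was 5 without replicate 2, 4 or 5 of BPH/2J, 3 without replicate 3 and 15 without replicate 1. It was 1 without replicate 1 or 2 of BPN/3J, 0 without replicate 3 and 7 without replicate 4, while the median stayed between 0.68 and 0.96.

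Of 23 fibrosis signalling and matrix turnover genes, 4 were higher and none lower (17.4%, median 0.65). They were Plat, tissue plasminogen activator (1.05), Loxl2 (1.79) and Lox (1.75), enzymes that cross-link collagen, and the growth factor Tgfb2 (1.20), called in 3 of the 9 fits. Loxl2 shares 44% of its words with another gene model. Tgfb1 had a log2 fold change of 0.19 and Ccn2, a matricellular growth factor, one of 1.04, and neither was called. Leaving out replicate 1 or 3 of BPN/3J lowered the count to 1, replicate 2 of BPN/3J or replicate 4 of BPH/2J to 2, and leaving out replicate 1 of BPH/2J raised it to 8.

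Tubular injury genes all had a positive log2 fold change, 20 of 20, but only 3 were called (15%, median 0.81). These were Cp, ceruloplasmin (1.68), Clu, clusterin (1.09) and Icam1, a leukocyte adhesion molecule (0.64). Cp was at 46.7, 88.1, 50.4, 82.2 and 41.7 CPM in BPH/2J mice and at 23.5, 12.1, 21.1 and 20.5 CPM in BPN/3J mice, with no overlap. The standard injury markers Havcr1, kidney injury molecule, and Lcn2, lipocalin, overlapped between strains and were not called (edgeR adjusted p = 0.254 and 0.197). For Lcn2, replicate 2 of BPH/2J was at 11.3 CPM and the other 4 at 0.759 to 3.2 CPM. Without that library the median of the injury list was 0.50. The number of injury genes called was 1 without BPN/3J vehicle replicate 2, 2 without replicate 1 or 3 of BPN/3J, and 5 without BPH/2J vehicle replicate 1.

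**Figure D4:**
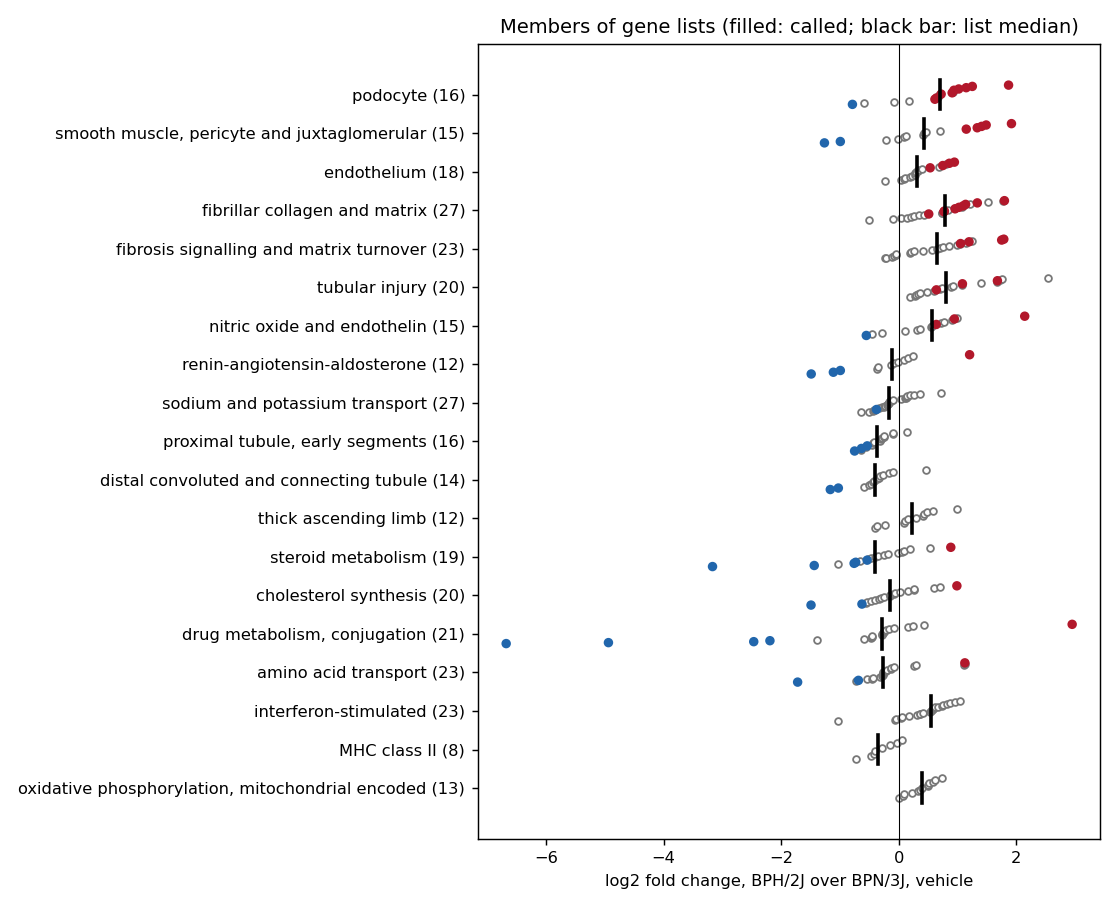
Log2 fold changes (BPH/2J over BPN/3J, vehicle) of the members of 19 gene lists, with the number tested in brackets; filled points were called, red higher and blue lower, and black bars are list medians. Podocyte, matrix and injury medians lie at 0.70 to 0.81, and steroid, early proximal and distal tubule medians at -0.37 to -0.41.

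Among regulators of blood pressure, renin-angiotensin genes were called for 4 of 12 (33.3%, median -0.11), 1 higher and 3 lower. The number lower was 4 without replicate 1 of BPH/2J, and 2 without its replicate 2 or 3 or without any 1 of the BPN/3J mice. Ren1, renin, was at 89.6, 70.6, 83.3, 31.5 and 103 CPM in BPH/2J mice and at 161, 139, 170.1 and 131 CPM in BPN/3J mice. The groups did not overlap (log2 fold change -0.99, SE 0.27, edgeR adjusted p = 0.042), but the call held in only 3 of the 9 fits with a library left out. Enpep, aminopeptidase A, which cleaves angiotensin II, averaged 103 ± 30.2 CPM (SD, n = 5) against 223 ± 23.6 CPM (SD, n = 4). Mas1, a receptor for an angiotensin fragment, fell by 1.49. Mme, neprilysin, which degrades several vasoactive peptides, rose by 1.21, with overlap between strains and a call in 2 of the 9 fits. Agt, Ace and Agtr1a had log2 fold changes of 0.24, 0.16 and -0.36, and none was called.

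In the adrenergic and dopamine list, 2 of 14 genes were lower (14.3%, median -0.30). Ddc, the decarboxylase that makes dopamine, averaged 53 ± 6.69 CPM in BPH/2J mice (SD, n = 5) and 84.6 ± 9.5 CPM in BPN/3J mice (SD, n = 4). Adra2b, an alpha-adrenergic receptor, fell by 0.58, with a call in 3 of the 9 fits that left out a library. Over those 9 fits the number of lower genes ran from 1 (without replicate 2, 3 or 4 of BPH/2J or replicate 1, 2 or 3 of BPN/3J) to 3 (without replicate 1 of BPH/2J) in the adrenergic list.

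Nitric oxide and endothelin genes were called for 4 of 15 (26.7%, median 0.56). Nos3, endothelial nitric oxide synthase, was at 4.62, 6.03, 5.57, 6.24 and 6.45 CPM in BPH/2J mice and at 3.3, 3.56, 2.69 and 2.43 CPM in BPN/3J mice, with no overlap (log2 fold change 0.95, SE 0.18, edgeR adjusted p = 0.00691). Arg2, an arginase that uses the same substrate, rose by 2.15, and Ddah2, which clears an inhibitor of nitric oxide synthase, by 0.64, the latter called in 2 of the 9 fits. Pde5a, which degrades cyclic GMP, fell by 0.55, with an adjusted p of 0.0499 and a call in 1 of the 9 fits. Bdkrb2, the bradykinin receptor, rose by 0.98. In the eicosanoid list, 2 of 21 were called (9.52%): Cyp4b1 and the related Cyp4a14 (1.93), whose groups overlapped and which was called in 2 of the 9 fits.

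Sodium and potassium transport genes differed rarely, with 1 of 27 called (3.70%, median -0.16). That gene was Cul3, part of the ubiquitin ligase that controls WNK kinases (-0.39), and it was called in 1 of the 9 fits that left out a library. Slc12a3, the thiazide-sensitive cotransporter, was at 391, 278, 227, 117 and 228 CPM in BPH/2J and at 372, 388, 367 and 274 CPM in BPN/3J mice. The groups overlapped (log2 fold change -0.50, 95% confidence interval -1.10 to 0.10, edgeR adjusted p = 0.291). Slc12a1 (-0.23), Scnn1a (-0.33) and Slc9a3 (-0.25) were not called either. A miss does not show that levels were equal. Without BPH/2J vehicle replicate 1, 5 of the 27 were lower.

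Of 16 early proximal tubule genes 3 were lower (18.8%, median -0.37): Fbp1, a gluconeogenic enzyme (-0.63), Slc2a2, a glucose transporter (-0.75), and Cubn, a receptor for filtered proteins (-0.54). Cubn overlapped between strains and was called in 2 of the 9 fits that left out a library. The count was 8 without BPH/2J vehicle replicate 1, 3 without replicate 4 of BPN/3J and 2 in each of the other 7 such fits. Genes of the straight segment of the proximal tubule had a median near that of all genes, with 1 of 12 lower (8.33%, median -0.05). In the distal convoluted tubule list 2 of 14 were lower (14.3%, median -0.40), the sodium-calcium exchanger Slc8a1 (-1.16) and Tmem52b (-1.03). Leaving out replicate 1 of BPH/2J raised that count to 7. Slc8a1 was at 78.3, 49.8, 43.2, 29.3 and 58 CPM in BPH/2J mice and at 119, 124, 123 and 97.1 CPM in BPN/3J mice. BPH/2J vehicle replicate 4, which was lowest for Slc8a1, was also lowest for Slc12a3 and highest for the water channel Aqp2, at 507 CPM before scaling against 184 to 343 CPM in the other 8 libraries. None of 12 thick ascending limb genes was called. Of 12 principal cell genes only Tmem45b was called (-1.25, 8.33% of the list). Of 14 intercalated cell genes only Atp6v1b1, a proton pump subunit, was called (-0.65, 7.14% of the list). Without BPN/3J vehicle replicate 1, 0 intercalated cell genes were lower.

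Enzymes of steroid metabolism were lower for 5 of 19 and higher for 1 (31.6%, median -0.41). Akr1c18, which inactivates progesterone, was at 2.79, 3.61, 4.01, 8.71 and 16.3 CPM in BPH/2J mice and at 85, 39.1, 88.1 and 40.5 CPM in BPN/3J mice. The highest BPH/2J value, in replicate 5, was below the lowest BPN/3J value (log2 fold change -3.17, SE 0.51, edgeR adjusted p = 0.00322). Srd5a2, a steroid reductase that makes dihydrotestosterone, was at 9.81 to 12.1 CPM in BPH/2J and 26.7 to 33.6 CPM in BPN/3J mice (-1.44). Hsd3b3 (-0.73, called in 4 of the 9 fits), Hsd17b11 (-0.76) and Nr3c1, the glucocorticoid receptor (-0.54), were lower and Hsd17b2 was higher (0.89). The number of lower genes was 2 without BPN/3J vehicle replicate 1 and 3 without replicate 2 of BPH/2J or replicate 2, 3 or 4 of BPN/3J, and it was 2 in treated mice. Of 17 genes known to respond to androgen in mouse kidney, 4 were higher and 3 lower (41.2%, median 0.07). Leaving out replicate 2 of BPN/3J lowered the number higher to 1, and leaving out any other BPN/3J mouse lowered it to 2. Prlr, the prolactin receptor (2.65), and Esr1, an oestrogen receptor (0.84), were among the higher and Odc1 among the lower.

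Other metabolic lists held single large differences. Cyp24a1, which breaks down vitamin D, was at 15.2, 34.1, 49.9, 23.1 and 18 CPM in BPH/2J mice and at 122, 72.8, 132 and 105 CPM in BPN/3J mice (log2 fold change -1.94, edgeR adjusted p = 0.00399). Cyp26b1, which breaks down retinoic acid, fell by 1.78 and Cyp2j13 by 0.83, and with Cyp2f2 (-0.86, called in 1 of the 9 fits) and Cyp51 they made 5 of 19 P450 genes called (26.3%), of which 4 were lower, or 6 without replicate 1 of BPH/2J. In cholesterol synthesis 3 of 20 were called (15%, median -0.15). Hmgcs1, an early enzyme of the pathway, averaged 228 ± 20.9 CPM (SD, n = 5) against 642 ± 107 CPM (SD, n = 4), Insig1, a sterol sensor, fell by 0.62 and Cyp51, a later enzyme, rose by 0.99. Without replicate 4 of BPN/3J, 4 genes of that list were lower. Slc6a18, a glycine transporter, was at 109 to 327 CPM in BPH/2J and at 693 to 755 CPM in BPN/3J mice (-1.72). Slc47a1, which exports organic cations into urine, fell by 0.67, Slc22a4 by 0.62 (called in 3 of the 9 fits) and Slc6a13 by 0.68, and Slc38a3, a glutamine transporter, rose by 1.13. None of 30 nuclear genes of oxidative phosphorylation was called.

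In DNA replication and autophagy lists the few calls were isolated. Mcm6, a subunit of the replicative helicase, was at 1.73, 2.63, 0.631, 1.1 and 6.32 CPM in BPH/2J mice and at 29.2, 20.7, 29.5 and 20.1 CPM in BPN/3J mice (log2 fold change -3.35, SE 0.51, edgeR adjusted p = 0.0022). Its partners Mcm2, Mcm3, Mcm4, Mcm5 and Mcm7 had log2 fold changes of 0.02, -0.08, -0.08, 0.17 and 0.02, and none was called. Pcna, the sliding clamp of DNA polymerase, fell by 0.65, with 38% of its words shared. Atg4a, a protease of autophagy, fell by 2.96, but 74.9% of its words occur in a pseudogene, and Atg3 fell by 0.36, with a call in 2 of the 9 fits. Replicate 5 was the highest BPH/2J library for Mcm6 and, at 9.32 CPM, for Atg4a.

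Immune lists gave few calls. None of 14 macrophage, 3 neutrophil, 8 MHC class II, 15 MHC class I or 23 interferon-stimulated genes was called, and of 11 lymphocyte genes only Tagap. The lists were not all flat. Of the interferon-stimulated genes, 20 had a positive log2 fold change and 3 a negative one (median 0.55, or 0.37 without BPH/2J vehicle replicate 5). Of the MHC class II genes, 1 had a positive log2 fold change and 7 a negative one (median -0.35). Without BPH/2J vehicle replicate 1, 5 interferon-stimulated genes were called higher, and without replicate 2, 3 MHC class II genes were called lower. H2-Ab1, a class II gene, was at 16.3, 70.7, 24.3, 29.5 and 45.9 CPM in BPH/2J mice and at 63.9, 55.9, 64.6 and 61.8 CPM in BPN/3J mice. Replicate 2 alone of the BPH/2J mice was above the BPN/3J range. In the complement list, 4 of 19 were called (21.1%), 3 higher and 1 lower. The number higher was 1 without replicate 1 or 3 of BPN/3J, 4 without its replicate 4, 5 without replicate 1 of BPH/2J and 2 in the other 5 fits, and 2 were lower without replicate 2 or 5 of BPH/2J. Cd55, which shields cells from complement, rose by 1.98, Serping1, an inhibitor of the first complement proteases, by 1.02, and C4a fell by 1.82. C4a shares 48.9% of its words with another gene. The formylpeptide receptor genes Fpr1 and Fpr2 reached at most 0.0866 and 0.185 CPM in any vehicle library and were not tested.

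A few genes were nearly absent from one strain. With all 9 libraries, 7 genes had 3 counts or fewer in every BPN/3J library and 1 CPM or more in every BPH/2J library, among them Gabra3, a GABA receptor subunit, at 1.98 ± 0.526 CPM in BPH/2J mice (SD, n = 5), and the zinc finger gene Zfp990, at 2.5 ± 1.11 CPM. In the other direction 1 gene met the rule with replicate 5 and 10 did without it. Ankrd65 had no count in the 4 other BPH/2J libraries and averaged 3.56 ± 0.880 CPM in BPN/3J mice (SD, n = 4), which is at least 38.1-fold higher than 3 counts per library would be. Replicate 5 had it at 0.730 CPM.

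Of 15208 tested genes placed on a chromosome in the order of the RefSeq annotation, 1411 were called. Among them, 255 pairs of adjacent tested genes were both called, and 168 of these (65.9%) shared a direction. The numbers of pairs and runs to be met by chance were not computed. Runs of 3 or more in the same direction numbered 23 and held 79 genes. Some of these runs hold related genes, such as Nat8f3, Nat8f6 and Nat8f5, and shared reads within runs were not tested. The longest had 6 genes each: the Serpina1 cluster on chromosome 12, higher in BPH/2J mice (median log2 fold change 5.06), and Fgf10, Nnt, Paip1, 4833420G17Rik, 3110070M22Rik and Tmem267 on chromosome 13, lower (median -1.68). Within the latter, Tmem267 was at 7.65, 8.43, 8.73, 8.26 and 32.6 CPM in BPH/2J mice and at 145, 98.7, 147 and 153 CPM in BPN/3J mice. Nnt, a mitochondrial transhydrogenase, was at 107 to 149.9 CPM in BPH/2J and at 247 to 259 CPM in BPN/3J mice (-0.96). The share of tested genes called ran from 5.18% on chromosome X to 12.3% on chromosome 4.

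The strain difference was then measured in mice that the vehicle comparison did not use. In 4 BPH/2J and 5 BPN/3J mice given Cmpd17b, 1330 of 15506 genes were called (8.58%), 739 higher (4.77%) and 591 lower (3.81%). Replicate 1 of the group labelled BPH/2J Cmpd17b holds a heart muscle profile and was left out there, as in the choice of low genes above. With that library in the comparison 322 genes were called. In the treated libraries that were kept, 7 of 8 heart muscle genes tested were still called higher in BPH/2J mice and none lower (median log2 fold change 3.86). Under vehicle, none of 8 was called higher and 1 was called lower (median 0.74). The source of these heart transcripts in treated mice was not tested. Of the 1429 vehicle calls tested in treated mice, 1416 (99.1%) had the same direction and 854 (59.8%) were also called, which is 64.2% of the treated calls. None was called in the opposite direction. A test of the difference between arms, over the 18 libraries other than the one with the heart profile, called 5 of 16421 genes and none of the vehicle calls, with 529 at an unadjusted p under 0.05.

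Hdc was at 454 ± 49.7 CPM in treated BPH/2J (SD, n = 4) and 0.957 ± 0.332 CPM in treated BPN/3J mice (SD, n = 5), and Cyp4b1 at 2691 ± 415 against 279 ± 19.5 CPM. In treated mice 2 of 16 podocyte genes were higher and 1 lower (median 0.46), and none of 27 matrix genes was higher and 1 lower (median 0.33). Sparc had a log2 fold change of 0.43 there (edgeR adjusted p = 0.178) against 0.96 under vehicle, and Cyp24a1 one of -0.30 against -1.94. Ren1 had a log2 fold change of -0.41 there (edgeR adjusted p = 0.417). Of 8 MHC class II genes, 6 were lower in treated mice (median -1.36) and none under vehicle (median -0.35), where 3 were lower without replicate 2 of BPH/2J. H2-Ab1, one of them, had a log2 fold change of -1.89 in treated mice and -0.72 under vehicle. The difference between arms was not called for Sparc, Cyp24a1, Ren1 or H2-Ab1. Cdkn1c (1.52), Rgs5 (1.25), Cp (1.45), Akr1c18 (-4.26) and Hmgcs1 (-1.42) were called in both arms.

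**Figure D5:**
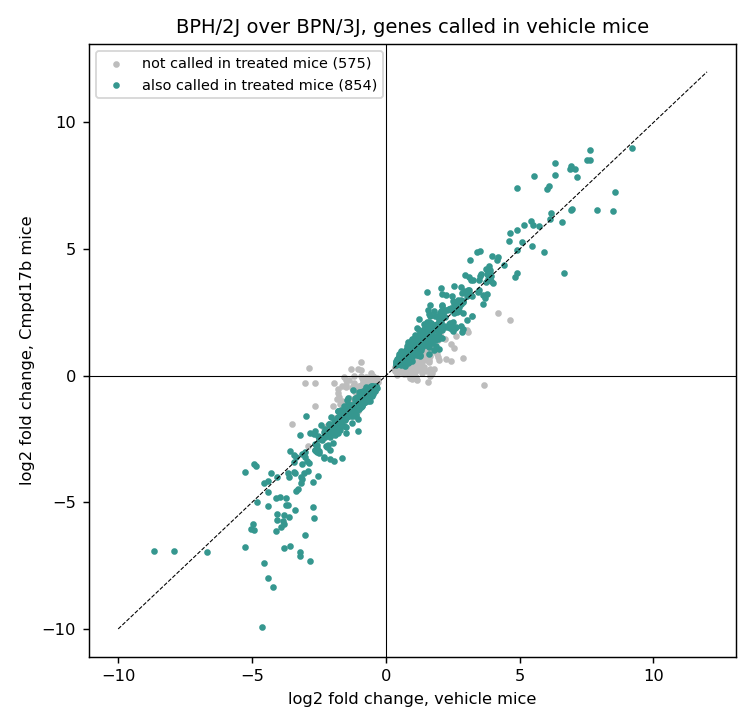
Log2 fold changes of BPH/2J over BPN/3J in vehicle mice (x axis) and Cmpd17b mice (y axis) for the 1429 genes called under vehicle and tested in both; green points (854) were also called in treated mice, and the dashed line marks equal values. All but 13 genes keep their sign.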

How the data were processed

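Kidney RNA of 19 mice was measured by RNA sequencing, and 9 vehicle libraries enter the comparison. The authors deposited an estimated count per gene symbol and library, which need not be a whole number and was rounded here. Per the submitters' processing notes, reads were handled with Trim Galore 0.6.7 and STAR 2.7.9a on mm39 (GRCm39). How reads were counted, and on which annotation, is not given in the sources used here. Both strains were mapped to the C57BL/6J reference, and the effect of strain variants on mapping was not tested.

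The test was edgeR 4.0.16 (R 4.3.3), a robust quasi-likelihood fit of the 9 vehicle libraries with TMM scaling and filterByExpr (minimum count 10, minimum total 15). P-values were adjusted by Benjamini-Hochberg over all genes tested, calls needed an adjusted p under 0.05, and adjusted p-values printed without a tool come from this fit. They measure the spread between mice, with 1 library per mouse. Treated mice were fitted separately, and the difference between arms was tested over 18 libraries. DESeq2 1.42.0 and limma 3.58.1 were alternatives. On simulated counts for this comparison (15576 genes), 71.0% of 107 genes changed 2-fold and 20.4% of 93 genes changed 1.5-fold were called, with 4.04% false calls. Only these genes were changed, all drawn from above a minimum mean level. They are a smaller share than the 9.39% called in the data, so these rates may not carry over. Confidence intervals come from the edgeR fit and include the spread between mice that it estimates. The floor of 3 counts is a counting limit only.

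Genes were named from the calls, leaving out predicted loci and any mean log2 CPM below 1. The rule took 10 genes each by largest rise, by largest fall and by smallest p-value among the remainder, then 6 each by gain and by loss in CPM. Up to 4 called members per list, genes near zero in one strain and a fixed set of kidney and blood pressure genes were added. Further list members and neighbouring genes are named to complete counts and were chosen after their values were seen. Lists and members were chosen with earlier results of these data known. The check for shared sequence was planned on proteins and was made instead on 31-base words of GENCODE transcripts (at least 20% shared with another gene). Promoters came from RefSeq, GRCm38.p6, which is not the build of the counts, so no coordinates were joined to them other than by symbol. Results for a few list members are not reported here.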

Additional observations from a re-analysis of the deposited data

Results flagged for a closer look

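Of 294 groups of libraries checked, 26 held 1 library far from the others. The cut-off would flag about 1 in 20 groups of normally distributed values. CPM values need not be so distributed, and the groups share the same libraries, so no excess over chance can be read from this count. All values here are CPM on the TMM scale. Replicate 5 of the BPH/2J vehicle mice was high for Spink6 (1.29), Zfp33b (2.19), Sectm1a (2.36), Tmem267 (32.6) and Atg4a (9.32), all genes lower in that strain, and low for Cd55 (8.42), which was higher in it.

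Replicate 2 of the BPH/2J vehicle mice was high for the matrix and injury genes Col1a1 (24.6), Col3a1 (45.8), Loxl2 (8.72), Lcn2 (11.3) and Icam1 (25.1) and for the macrophage receptor Mrc1 (6.93). Replicate 4 was high for Serpina1a (315) and for Krt5, a keratin of basal urothelial cells (8.71). Replicate 1 was high for Hsd3b3 (34.0) and for the sodium-proton exchanger Slc9a3 (187).

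Among BPN/3J vehicle mice, replicate 2 was low for Angptl7 (3.36), Tmem267 (98.7) and Synpo (10.2) and high for Star (6.42), a cholesterol carrier of steroid-producing cells. That library also had the highest summed level of adrenal markers, at 23.4 CPM before scaling. Replicate 4 was low for Ugt1a9 (9.05) and Ugt1a6b (46.0) and high for Ubb (1243), Ugt2b37 (22.3), Ccn2 (54.3) and Pvalb, a calcium-binding protein of the distal convoluted tubule (23.6).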

How the results depend on the processing

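The 1476 calls became 2331 with DESeq2, 566 with all 19 libraries in the fit, 745 with a 2-fold minimum, and 2417 with the ribosomal protein share as a covariate, which was chosen after seeing the data. The causes were not tested, except that the 2-fold minimum removes genes by construction. Of the 1476, DESeq2 called 1468 and the 19-library fit 535 in the same direction. Leaving out 1 library gave 815 to 2110 calls. The limma-voom, size factor, filter, 18-library and mitochondrial alternatives stayed within 1.5 times the count. Of 113 called named genes, 45 were called under every setting run and none reversed. In treated mice, adding the heart profile library gave 322 calls in place of 1330, and the 19-library fit gave 0 genes with a difference between arms in place of 5. The difference in mitochondrial share was 3.80 to 5.22 percentage points with 1 library left out (exact permutation p = 0.0286 to 0.0714). That in the share of the 10 most abundant genes was 3.92 to 6.08 points (exact permutation p = 0.0357 to 0.107), and 1.41 without mitochondrial genes (exact permutation p = 0.492). Genes near zero in one strain numbered 20 at 10 counts or fewer and 8 at 3. No paired analysis was possible because the labels give the strains no shared animal numbers. Differences of 1.5-fold were often missed on simulated counts at this depth and spread, in which fewer genes changed than were called here.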
